A study of Mus musculus with 6 samples.

Results

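Chemokines are small secreted proteins that draw leukocytes along a gradient by binding receptors coupled to inhibitory G proteins. Interleukins are cytokines that act on target cells through receptors. Many of these feed the JAK-STAT pathway, and some, such as those of the interleukin-1 family, feed NF-kB. In skeletal muscle both families are known for bringing monocytes and other leukocytes to injured or infected fibres, and some members, such as interleukin-15 and the receptor chain gp130, are made by the muscle itself. The genes described here are the members of these families on a mouse expression array. They were taken as all probe sets (groups of short oligonucleotides that read 1 transcript) whose single gene symbol begins with Ccl, Ccr, Cxcl, Cxcr or Il followed by a digit, or with Cx3c. The rule found 157 of the 22626 probe sets tested, which stand for 113 of 12393 genes. A further 6 probe sets with several symbols, among them those of Ccl19 and Ccl21, were left out.

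Total RNA came from the muscle of 6 wild-type C57BL/6 mice, 1 array per mouse. In the TFEB overexpression group (3 mice) the muscle was injected with adeno-associated virus, AAV, for mouse Tcfeb, which encodes a transcription factor known for switching on lysosomal and autophagy genes. In the GFP control group (3 mice) the same vector type delivered green fluorescent protein. All 6 thus carry a vector, and muscle without any vector was not analysed here. The labels give an age of 1 month, while injected mice are called adult in the study, and per its methods both vectors use the cytomegalovirus promoter, which is not limited to muscle fibres. The question was which chemokines, interleukins and receptors differ in muscle that received TFEB.

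Values are deposited log2 levels, and each difference is the TFEB mean minus the GFP mean with its standard error (SE, n = 3 and 3 arrays). A probe set was called when the limma adjusted p was under 0.05 and the change was at least 1.5-fold. Members whose mean over the 6 arrays lay under 5.8, near the level of transcripts that are absent, are termed dim and counted apart. There were 49 bright probe sets (36 genes) and 108 dim ones, and 77 genes had dim probe sets alone. Just under the limit lay Il1r2 (5.789), Il10ra (5.791) and Ccr1 (5.796), and just over it Il13ra1 (5.819) and Il21r (5.825). Per array, values are given in the order of replicates 1, 2 and 3.

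GFP control replicate 2 stood apart from its group. It differed by over 2-fold from GFP control replicates 1 and 3 at 844 and 725 probe sets, against 87 between those 2 arrays and 45 to 101 within the TFEB group. The skeletal muscle fibre markers, which include Acta1 and Ckm, were all bright (14 of 14), and their summed linear level was 194986 to 199671 in the TFEB arrays and 195553 to 197179 in the GFP arrays. Such a sum is carried by the most abundant markers. Of the 14, Tnni1 was called higher (log2 1.51) and 13 were not called. Of 6 satellite cell and myoblast markers, Myog (3.47) and Myf5 (0.94) were higher and 4 were not called (8.62% of all genes were higher). The only Tfeb probe set was lower in the TFEB arrays (7.92, 7.68 and 7.61) than in the GFP arrays (8.49, 8.47 and 8.58), so it does not check the labels, since its position against the delivered cDNA was not analysed here.

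With all 6 arrays, 4 bright members were higher and 4 lower in TFEB muscle, each 8.16% of the 49, and 41 were not called. Across all bright probe sets 10.2% were higher and 8.88% lower. Higher were the chemokine receptor gene Cxcr4, the B cell attractant Cxcl13, the shared receptor chain gene Il10rb and the alarmin gene Il33. The eosinophil attractant Ccl11, the interleukin-12 subunit gene Il12a and probe sets of the receptor genes Il15ra and Il6st were lower. Of the 49, 5 had a GFP mean under the dim limit and were bright through their TFEB values, Cxcr4 and the called probe set of Cxcl13 among them. Il12a was bright through its GFP values. These called members thus passed the brightness filter through the group in which they are high. Among the dim members 1 was higher (Cx3cl1, background 3.45%), 1 lower (Ccl25, background 1.96%) and 106 not called. The median log2 fold change of the bright members was 0.24, beside -0.02 for all bright probe sets.

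**Figure D1:**
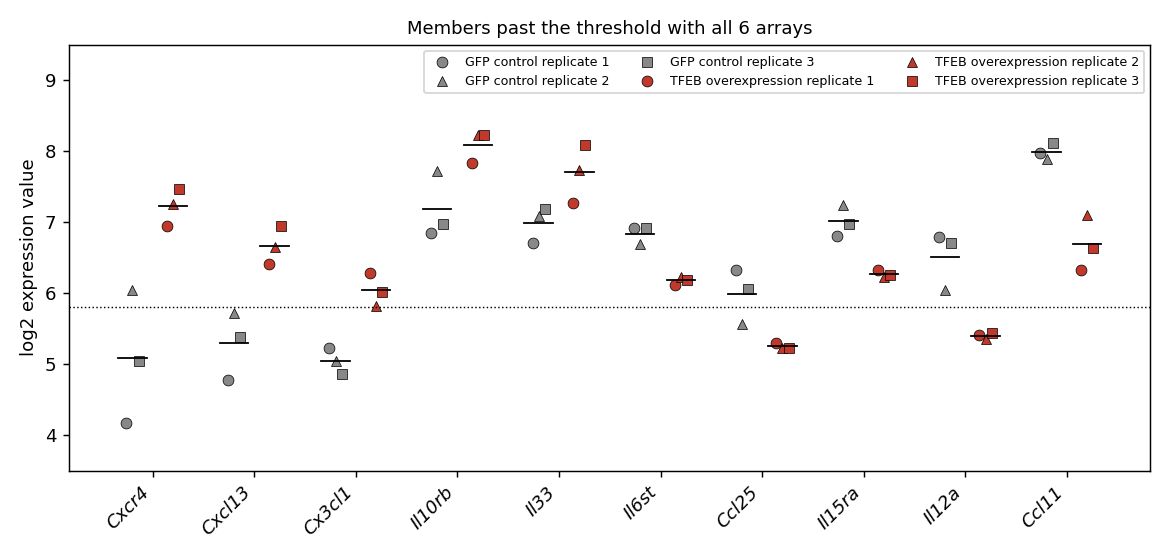
Log2 expression value (vertical axis) of the 10 members called with all 6 arrays. Points are single arrays (GFP control grey, TFEB overexpression red, replicate by symbol), black bars are group means and the dotted line is the dim limit of 5.8. In each of them the 3 TFEB arrays lie wholly above or wholly below the 3 GFP arrays.

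Among the chemokine receptors, Cxcr4, the receptor of Cxcl12 that guides leukocytes, stem cells and satellite cells, showed the largest called rise of the family. It read 4.17, 6.05 and 5.04 in the GFP arrays and 6.95, 7.26 and 7.46 in the TFEB arrays, a fold change of 4.40 (log2 2.14 ± 0.44 SE, limma adjusted p = 0.012). All TFEB values lay above the GFP values, of which replicate 2 was the highest. The GFP mean lay under the dim limit, and with values under the limit raised to it the fold was 2.53. Without TFEB overexpression replicate 3 the adjusted p was 0.052 at a log2 fold change of 2.02. For its ligand Cxcl12 the probe set of highest mean read 9.10, 8.91 and 9.16 in the GFP arrays and 9.09, 9.6 and 9.62 in the TFEB arrays (0.38 ± 0.16, adjusted p = 0.11), so that the groups overlapped. The second probe set of Cxcl12 gave 0.24 ± 0.094 (adjusted p = 0.091). The receptor's change was called and the ligand's was not.

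The chemokine receptors held 23 probe sets of 16 genes, of which only those of Cxcr4 and Ccr2 were bright (3 probe sets). Ccr2 is the receptor by which inflammatory monocytes follow Ccl2 and Ccl7. Its brighter probe set read 5.76, 9.21 and 6.08 in the GFP arrays and 8.10, 8.38 and 8.50 in the TFEB arrays (1.31 ± 0.86, adjusted p = 0.28). GFP control replicate 2 was the highest of all 6 arrays, and replicates 1 and 3 the lowest. With that array left out, both bright probe sets of Ccr2 were higher, by 2.41 ± 0.15 (adjusted p = 0.00017) and by 1.02 ± 0.17 (adjusted p = 0.0041). The other receptors were dim. Ccr1, which binds Ccl3, Ccl6 and Ccl9, gave 0.48 ± 0.40 (adjusted p = 0.39), Cx3cr1, the fractalkine receptor of monocytes, 0.44 ± 0.17 (adjusted p = 0.085) and Cxcr3, the receptor of Cxcl9 and Cxcl10 on activated T and NK cells, -0.46 ± 0.43 (adjusted p = 0.44). Cxcr3 read 5.25, 7.0 and 5.56 in the GFP arrays and 5.19, 5.59 and 5.66 in the TFEB arrays, so its highest value was again that of GFP control replicate 2. The eosinophil receptor Ccr3 lay at 2.93 to 3.24 in all 6 arrays (-0.05 ± 0.11, adjusted p = 0.74). The lymphocyte homing receptor Ccr7 gave 0.16 ± 0.39, Ccr9 -0.06 ± 0.092, the T helper cell receptors Ccr4 and Ccr6 -0.26 and -0.35, and Cxcr6, the receptor of Cxcl16, -0.12 ± 0.54.

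Promoter sequence is shown for a set of members at both ends of the patterns above and below, namely Cxcl9 and Cxcl10, with the largest excess in GFP control replicate 2 over replicates 1 and 3, and Ccl8 and Cxcr4, the largest fold changes with all arrays. Each run is the 250 bases before the start of the gene in RefSeq, assembly GRCm38.p6, read on the gene's strand, with capitals marking matches to GGGANNNNCC (an NF-kB-like motif) or GAAANNGAAA (an element like that of interferon-stimulated genes), searched on both strands.
Cxcl9, chr5:92328080-92328329, minus strand: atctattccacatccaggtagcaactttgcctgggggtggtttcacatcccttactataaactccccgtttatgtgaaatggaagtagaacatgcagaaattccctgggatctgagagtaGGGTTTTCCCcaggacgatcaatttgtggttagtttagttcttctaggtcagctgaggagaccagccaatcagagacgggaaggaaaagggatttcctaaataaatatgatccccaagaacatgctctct
Cxcl10, chr5:92348890-92349139, minus strand: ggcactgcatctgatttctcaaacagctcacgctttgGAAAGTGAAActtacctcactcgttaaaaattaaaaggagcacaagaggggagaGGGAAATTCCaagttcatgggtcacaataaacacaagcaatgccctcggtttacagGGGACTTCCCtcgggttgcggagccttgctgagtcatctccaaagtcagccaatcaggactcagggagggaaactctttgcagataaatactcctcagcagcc
Ccl8, chr11:82114935-82115184, plus strand: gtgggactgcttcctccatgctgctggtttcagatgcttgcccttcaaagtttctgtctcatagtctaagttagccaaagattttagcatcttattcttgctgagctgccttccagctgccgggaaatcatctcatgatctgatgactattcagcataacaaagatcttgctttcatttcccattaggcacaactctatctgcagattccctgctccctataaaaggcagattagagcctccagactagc
Cxcr4, chr1:128592300-128592549, minus strand: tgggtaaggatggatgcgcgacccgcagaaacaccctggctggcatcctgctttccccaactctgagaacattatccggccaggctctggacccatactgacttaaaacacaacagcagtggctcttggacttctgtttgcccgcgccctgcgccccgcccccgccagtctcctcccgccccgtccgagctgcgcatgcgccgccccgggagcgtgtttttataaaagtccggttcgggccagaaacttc
The Cxcl9 window held 1 match to GGGANNNNCC and the Cxcl10 window 2, with 1 match to GAAANNGAAA, whereas the windows of Ccl8 and Cxcr4 held none of either. The table gave windows for 85 member genes (102 windows, some genes having several starts). GGGANNNNCC occurred in 27.5% of them, beside 17.6% of all 32851 windows, and GAAANNGAAA in 2.94% and 2.98%. The palindromic E-box CACGTG, which TFEB and related factors bind, occurred in 1.96% of the members' windows and 6.02% of all windows, and the STAT-like TTCNNNGAA in 10.8% and 7.02%. These shares describe the letters in the windows and were not tested.

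The CC ligands held 11 bright probe sets of 9 genes, of which 0 were called higher and 1 lower with all 6 arrays. At an unadjusted limma p under 0.05 the counts were the same, 0 and 1, and the methods' two-tailed test gave 0 and 1 as well. The fall was that of Ccl11 (eotaxin-1), which attracts eosinophils through Ccr3 and was the largest called fall of the family. It read 7.97, 7.89 and 8.12 in the GFP arrays and 6.33, 7.10 and 6.64 in the TFEB arrays, lower 2.47-fold (log2 -1.31 ± 0.19, adjusted p = 0.0038). The GFP arrays agreed closely here, replicate 2 included. Ccl24, the second eotaxin, gave -0.34 ± 0.15 (adjusted p = 0.13), and the dim Ccl25, the ligand of Ccr9 known from thymus and gut, read 6.33, 5.57 and 6.06 against 5.30, 5.23 and 5.22 (-0.73 ± 0.18, adjusted p = 0.023). Its call was lost, at an adjusted p of 0.05 to 0.078, without GFP control replicate 1 or 3 or without any one of the TFEB arrays.

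The other CC ligands included those with the widest spread in the GFP group. Ccl8 (MCP-2), which attracts monocytes and lymphocytes, read 6.34, 9.90 and 5.26 in the GFP arrays and 8.81, 9.95 and 10.03 in the TFEB arrays, a log2 fold change of 2.43 ± 1.1 (adjusted p = 0.14). Ccl5 (RANTES), a T cell and monocyte attractant, read 4.45, 9.68 and 5.30 in the GFP arrays and 7.08, 7.31 and 7.69 in the TFEB arrays (0.89 ± 1.3, adjusted p = 0.61). In both genes GFP control replicates 1 and 3 lay below every TFEB array, and replicate 2 lay within the TFEB range for Ccl8 and above it for Ccl5. Ccl6, a macrophage-derived ligand of Ccr1, read 7.69, 9.6 and 7.86 against 8.61, 9.56 and 9.54 at its brighter probe set (0.85 ± 0.53, adjusted p = 0.26). Ccl9, another ligand of Ccr1, read 7.06, 8.97 and 7.45 against 8.14, 8.92 and 8.94 (0.84 ± 0.50, adjusted p = 0.23). The monocyte attractant Ccl2 (MCP-1) read 5.28, 7.47 and 5.43 in the GFP arrays and 5.72, 6.00 and 6.19 in the TFEB arrays (-0.09 ± 0.56, adjusted p = 0.91). For Ccl2 the single array GFP control replicate 2 lay above all others while the TFEB arrays lay above GFP control replicates 1 and 3. The dim Ccl3 (-0.49 ± 0.80), Ccl7 (-0.11 ± 0.53), Ccl12 (1.02 ± 0.58), Ccl17 (-0.29) and Ccl20 (-0.17) were not called.

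Of the CXC and CX3C ligands, 12 probe sets of 8 genes were bright, 1 was called higher and 0 lower. At an unadjusted limma p under 0.05 the counts were 5 and 1, and the methods' two-tailed test called 0 and 0 (2 and 1 unadjusted). The called gene was Cxcl13, which guides B cells through Cxcr5. One probe set of Cxcl13 read 4.78, 5.72 and 5.38 in the GFP arrays and 6.41, 6.65 and 6.95 in the TFEB arrays, higher 2.59-fold (log2 1.37 ± 0.25, adjusted p = 0.0082), or 1.82-fold with values under the dim limit raised to it. All GFP values of this probe set lay under that limit, and it counted as bright through its TFEB values. The other, of higher mean, gave 0.52 ± 0.10 (adjusted p = 0.010), under the fold limit, and for both all TFEB arrays lay above all GFP arrays. Its receptor Cxcr5 was dim (-0.25). Cx3cl1 (fractalkine), a membrane-bound ligand made by endothelium, was uneven over its probe sets. A dim one read 5.23, 5.04 and 4.86 against 6.29, 5.82 and 6.02 and was higher 2.00-fold (1.00 ± 0.15, adjusted p = 0.0039), whereas the bright one gave 0.06 ± 0.10 (adjusted p = 0.68).

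Cxcl9 and Cxcl10, the interferon-induced ligands of Cxcr3, showed the widest spread among the GFP arrays. Cxcl9 read 4.99, 11.39 and 5.42 in the GFP arrays and 7.27, 7.84 and 7.80 in the TFEB arrays (0.37 ± 1.6, adjusted p = 0.87). Cxcl10 read 4.12, 9.59 and 4.19 against 6.5, 6.62 and 6.97 (0.73 ± 1.4, adjusted p = 0.71). For both, the TFEB arrays lay close together, above GFP control replicates 1 and 3 and below replicate 2. Cxcl16, a membrane-bound scavenger protein and ligand of Cxcr6, read 6.99, 8.58 and 7.06 against 7.70, 8.16 and 8.09 at its brighter probe set (0.44 ± 0.42, adjusted p = 0.45), in the same order. Cxcl17, an attractant of myeloid cells at mucosal surfaces, was lower by less than the fold limit (-0.32 ± 0.076, adjusted p = 0.021), and Cxcl14 gave 0.48 ± 0.20 and 0.40 ± 0.20 at its probe sets (adjusted p = 0.11 and 0.17). The neutrophil attractant Cxcl1 was dim, with 0.51 ± 0.29 (adjusted p = 0.22), as was its receptor Cxcr2.

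**Figure D2:**
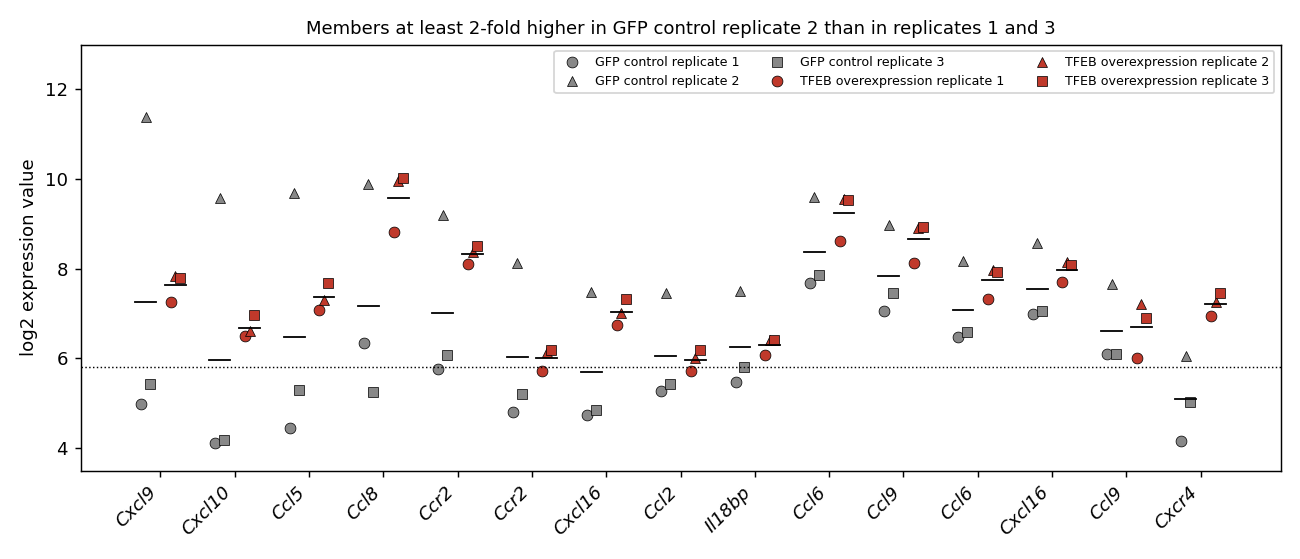
Log2 expression value (vertical axis) of the 15 bright member probe sets that were at least 2-fold higher in GFP control replicate 2 than in the mean of replicates 1 and 3, in the order of that difference. Points are single arrays, bars are group means and the dotted line is the dim limit of 5.8. Grey triangles (GFP control replicate 2) sit far above the grey circles and squares, and at most probe sets the red TFEB points sit between them or near the triangle. At Cxcr4 the red points sit above the triangle, and at the second probe set of Ccl9 a red point (6.01) lies below all grey ones.

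The interleukins and their soluble inhibitors held 41 probe sets of 34 genes, of which 6 were bright, 1 called higher and 1 lower. Il33, an alarmin of the interleukin-1 family kept in the nucleus of stromal cells, read 6.71, 7.09 and 7.18 in the GFP arrays and 7.27, 7.73 and 8.08 in the TFEB arrays (higher 1.63-fold, log2 0.70 ± 0.22, adjusted p = 0.049). That call sat at the threshold. Over the alternatives the adjusted p of Il33 ran from 0.013 to 0.14, and the call was lost when GFP control replicate 1 (log2 fold change 0.56) or 3 (0.80), or else TFEB overexpression replicate 2 (0.68) or 3 (0.51), was left out. Its receptor gene Il1rl1 had no probe set with a single symbol. Il12a, the p35 subunit of interleukin-12 and interleukin-35, read 6.79, 6.04 and 6.71 in the GFP arrays and 5.41, 5.35 and 5.44 in the TFEB arrays, lower 2.16-fold (-1.11 ± 0.19, adjusted p = 0.0068). The TFEB arrays differed little from one another and lay below every GFP array. All TFEB values of Il12a lay under the dim limit of 5.8, where levels are imprecise. It counted as bright through its GFP values, and the size of its fall is uncertain. Il15, which muscle makes and which sustains NK and memory T cells, gave -0.21 ± 0.19 (adjusted p = 0.42), Il16, a ligand of CD4, 0.35 ± 0.20 (adjusted p = 0.22) and Il18, an inflammasome product, 0.15 ± 0.16 (adjusted p = 0.49). Il18bp, the secreted decoy of interleukin-18, read 5.47, 7.51 and 5.8 against 6.08, 6.41 and 6.41 (0.04 ± 0.50, adjusted p = 0.96), with GFP control replicate 2 again the highest. The classical inflammatory ligands Il1b (0.18 ± 0.14) and Il6 (0.38 ± 0.24) were dim, as were Il1a, Il2, Il4, Il7, Il10, Il11, Il13, Il17a and the receptor antagonist Il1rn.

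Interleukin receptors made up 51 probe sets of 31 genes, 17 of them bright, and 1 was called higher and 2 lower. Il10rb, the chain shared by the receptors of interleukin-10, interleukin-22 and the lambda interferons, read 6.85, 7.72 and 6.98 in the GFP arrays and 7.83, 8.22 and 8.22 in the TFEB arrays, higher 1.87-fold (log2 0.91 ± 0.24, adjusted p = 0.029). Leaving out GFP control replicate 1 or 3 or TFEB overexpression replicate 2 or 3 raised the adjusted p of Il10rb to 0.08 to 0.097, although all TFEB arrays lay above all GFP arrays. Its partner Il10ra, which confers binding of interleukin-10, was just dim and read 4.18, 6.94 and 4.71 against 6.01, 6.29 and 6.62 (1.03 ± 0.67, adjusted p = 0.27). The rise in Il10rb was thus called on all 6 arrays and that of Il10ra was not.

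Lower were probe sets of Il15ra and Il6st, and other probe sets of the same genes differed. Il15ra, which presents interleukin-15 to neighbouring cells, read 6.81, 7.24 and 6.98 in the GFP arrays and 6.32, 6.23 and 6.26 in the TFEB arrays, lower 1.67-fold (-0.74 ± 0.12, adjusted p = 0.0049). Its second probe set was lower by less than the fold limit (-0.31 ± 0.090, adjusted p = 0.038), again with no overlap of the groups. Il6st (gp130), the signal chain shared by the interleukin-6, LIF and oncostatin M receptors, read 6.91, 6.69 and 6.91 against 6.12, 6.23 and 6.18 at 1 probe set (-0.66 ± 0.086, adjusted p = 0.0028, 1.58-fold). The Il6st probe set of highest mean read 9.58, 9.63 and 9.72 against 9.65, 9.67 and 9.74 (0.04 ± 0.072, adjusted p = 0.67), and the third gave -0.27 ± 0.11 (adjusted p = 0.10). The probe sets of Il6st thus differed in their change.

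Other receptor chains stayed under the threshold. Il17ra, the common interleukin-17 receptor chain, read 5.8, 6.69 and 5.88 against 6.74, 6.65 and 6.97 (0.67 ± 0.24, adjusted p = 0.073). Il13ra1, a chain of the interleukin-4 and interleukin-13 receptor, read 5.31, 6.10 and 5.03 against 6.19, 6.32 and 6.15 at one probe set (0.74 ± 0.26, adjusted p = 0.067). In both, GFP control replicate 2 reached or approached the TFEB values. Il17re was lower in all TFEB arrays by less than the fold limit (-0.48 ± 0.084, adjusted p = 0.0070), Il4ra gave 0.36 ± 0.21 and -0.03 ± 0.16 at its probe sets, Il6ra 0.42 ± 0.20 and -0.08 ± 0.089, and Il1r1, the signalling receptor of interleukin-1, 0.19 ± 0.14 (adjusted p = 0.32). Il7r (0.27 ± 0.36) and Il18r1 (-0.24) were dim. All 3 TFEB arrays lay above all 3 GFP arrays at 7 of the 49 bright members (14.3%, beside 27.5% of all bright probe sets) and below them at 8 (16.3%, beside 32.5%).

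Among the bright members, GFP control replicate 2 was set apart above all at the chemokines and their receptors. It was the highest of the 6 arrays at 21 of the 49 bright members (42.9%, beside 8.99% of all bright probe sets) and at least 2-fold above the mean of GFP control replicates 1 and 3 at 15 (30.6%, beside 3.78%). By role, these 15 were 7 of 11 CC ligand probe sets, 4 of 12 CXC and CX3C ligand, 3 of 3 chemokine receptor, 1 of 6 interleukin and 0 of 17 interleukin receptor probe sets. Dim members were not counted here. Some dim interleukin receptor probe sets were also at least 2-fold higher in GFP control replicate 2, such as Il10ra (5.63-fold), Il18r1 (3.26-fold) and Il2rb (3.23-fold). Most dim interleukin receptor probe sets were not. Brightness used the mean of all 6 arrays, this one included, and 6 of the 49 lay under the limit in the mean of the other 5. Cxcl10, Ccl2 and 1 of the 3 chemokine receptor probe sets (Ccr2) were among both those 6 and the 15. These counts were not repeated with brightness set by the other 5 arrays. The excess over replicates 1 and 3 was 72.9-fold for Cxcl9, 43.2-fold for Cxcl10, 27.9-fold for Ccl5, 17.1-fold for Ccl8 and 9.80-fold for Ccr2. In GFP control replicates 1 and 3 the values of Cxcl9, Cxcl10 and Ccl5 lay under the dim limit, where levels are imprecise. With values under the limit raised to it, the excess was 48.2-fold for Cxcl9, 13.8-fold for Cxcl10, 14.7-fold for Ccl5, 14.2-fold for Ccl8 and 9.68-fold for Ccr2. The median SE of the bright members was 0.20, against 0.095 for all bright probe sets, and 9 of the 49 had an SE over 0.5 with all arrays and 0 without this one. These values describe 1 array and carry no test.

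Without GFP control replicate 2 (2 GFP and 3 TFEB arrays), 20 of the 49 bright members were called higher (40.8%, beside 14.4% of all bright probe sets) and 4 lower (8.16%, beside 11.1%). The 4 higher and the 4 lower members called with all arrays were among them. Of the 20, 14 were among the 15 that were at least 2-fold higher in GFP control replicate 2. Leaving out an array that is high at these members lowers their GFP mean and their spread. The counts and adjusted p-values of this fit are therefore no independent support for a TFEB effect. The dim limit uses the mean of all 6 arrays, GFP control replicate 2 included, and 6 of the 49, Cxcl10, Ccl2 and 1 probe set of Ccr2 among them, lay under it in the mean of the other 5. With brightness set by those 5 arrays, 16 of 43 members were higher (37.2%, beside 14.3% of such probe sets). Regardless of brightness, 30 of the 157 members were higher (19.1%, beside 10.7% of all probe sets) and 5 lower (3.18%, beside 7.93%), against 5 higher (3.18%, beside 7.51%) and 5 lower (3.18%, beside 6.11%) with all arrays. The median log2 fold change became 0.51 (all bright probe sets -0.03) and the median SE 0.14 (all 0.097). Ccl8 was then higher 13.9-fold (log2 3.79 ± 0.43, adjusted p = 0.00087), Cxcl10 5.82-fold (2.54 ± 0.14, adjusted p = 0.00013), Ccl5 5.6-fold (2.49 ± 0.27, adjusted p = 0.00071), Cxcl9 5.40-fold (2.43 ± 0.20, adjusted p = 0.00032) and Ccr2 5.30-fold. In 10 of the 20 the mean of GFP control replicates 1 and 3 lay under the dim limit, and with such values raised to it the folds were 11.5 for Ccl8, 1.86 for Cxcl10, 2.95 for Ccl5, 3.57 for Cxcl9 and 5.24 for Ccr2. The 20 comprised 6 CC ligand, 5 CXC and CX3C ligand, 3 chemokine receptor, 2 interleukin and 4 interleukin receptor probe sets, so each group of the family held some. Ccl2 (0.61 ± 0.14, adjusted p = 0.014), Ccl6 (1.46 ± 0.28, adjusted p = 0.0066), Ccl9 (1.41 ± 0.26, adjusted p = 0.0052), Cxcl16 (2.24 ± 0.16, adjusted p = 0.00024), Il18bp (0.67 ± 0.15, adjusted p = 0.011), Il17ra (0.95 ± 0.11, adjusted p = 0.0010), Il13ra1 (1.05 ± 0.11, adjusted p = 0.00067) and Il6ra (0.62 ± 0.13, adjusted p = 0.010) were among them. Other bright probe sets of these genes were not called, namely those of Ccl9 (0.60, adjusted p = 0.17), Il6ra (-0.01, adjusted p = 0.92) and Il13ra1 (0.51, adjusted p = 0.036, under the fold limit). The Cxcl16 value is that of its dimmer probe set, and the brighter one gave 0.96 (adjusted p = 0.0025). With values under the dim limit raised to it, the folds were 2.34 for that dimmer probe set and 1.5 for Il6ra. They were 1.41 for Il18bp, 1.34 for Il13ra1, 1.18 for the second called probe set of Ccr2 and 1.15 for Ccl2, all under the fold limit. Of the dim members 10 were then higher (background 5.3%), including Il10ra, Ccl12, Ccr7, Il2rb and Il3ra, and 1 lower (background 3.11%). Leaving out any other single array gave 1 to 6 bright members higher, 1 without TFEB overexpression replicate 3 and 6 without TFEB overexpression replicate 1, and 4 lower in every case.

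The members high in GFP control replicate 2 did not stand alike in the TFEB arrays. Of the 20 bright members higher without it, GFP control replicate 2 lay above all 3 TFEB arrays at 12, within their range at 3 and below them at 5. It exceeded the TFEB mean 13.5-fold for Cxcl9, 7.43-fold for Cxcl10 and 4.98-fold for Ccl5. For Ccl8, Ccl6, Ccl9 and Cxcl16 the excess was 1.24-fold, 1.29-fold, 1.23-fold and 1.37-fold at the probe set of largest change. It was 1.92-fold at the second probe set of Ccl9, 2.83-fold for the monocyte attractant Ccl2, and 1.85-fold and 4.32-fold at the probe sets of Ccr2, so the monocyte and macrophage associated members did not stand alike either. Cxcr4 and Cxcl13 went the other way, with the TFEB mean 2.26-fold and 1.93-fold above GFP control replicate 2. Ccl11 and Il12a were lower in the TFEB arrays than in every GFP array and were not raised in GFP control replicate 2 (-0.15 and -0.70 from replicates 1 and 3). These are differences from a single array and were not tested.

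**Figure D3:**
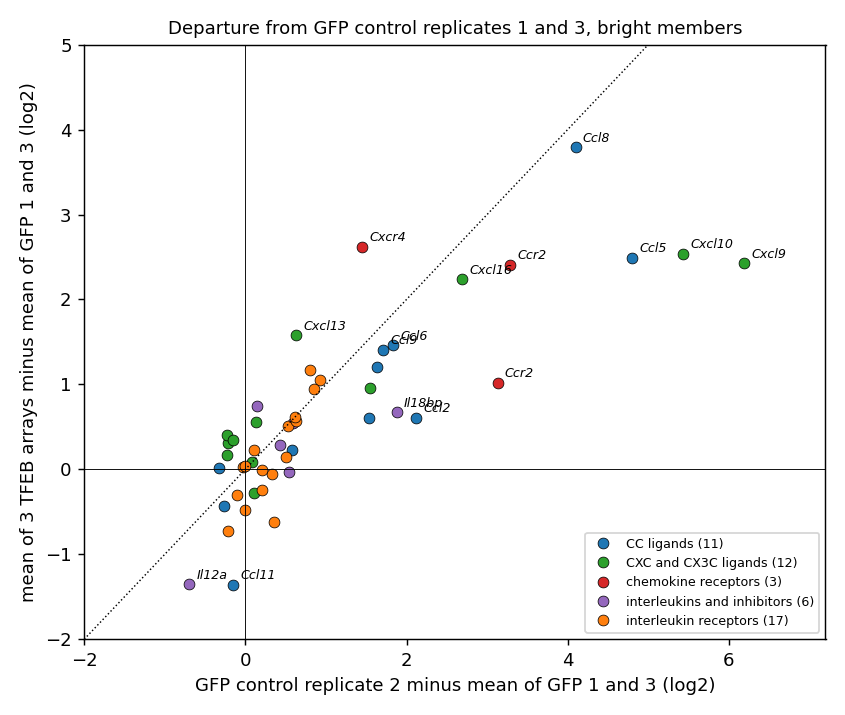
Each point is 1 of the 49 bright member probe sets. The horizontal axis gives GFP control replicate 2 minus the mean of GFP control replicates 1 and 3 and the vertical axis the mean of the 3 TFEB arrays minus the same mean, both in log2, with equal departures on the dotted line and colours for the roles. Cxcl9, Cxcl10 and Ccl5 lie far to the right of the line, Ccl8, Ccl6 and Ccl9 near it, Cxcr4 and Cxcl13 above it, and Ccl11 and Il12a at the bottom.

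The macrophage, NK cell, dendritic cell and B cell marker sums moved with these members. Each sum was higher in GFP control replicate 2 and in the TFEB arrays than in GFP control replicates 1 and 3. Of the 7 B cell markers 0 were called with all arrays or without GFP control replicate 2. The T cell marker sum was not raised in the TFEB arrays, nor were the neutrophil and mast cell marker sums in GFP control replicate 2. The summed linear level of 17 macrophage markers, Cd68, Adgre1 and Csf1r among them, was 2702 to 2997 in GFP control replicates 1 and 3, 12948 in GFP control replicate 2 and 7734 to 13781 in the TFEB arrays. With all arrays 1 of the 17 was called higher (Cd68, log2 2.73) and without GFP control replicate 2 it was 15 (background per gene 8.62% and 12.3%). The 7 NK cell markers summed to 148 to 154, 945 and 248 to 289 in the same order, the 12 T cell markers to 716 to 759, 1188 and 667 to 761, and the 7 B cell markers to 174 to 184, 276 and 196 to 226. The macrophage sum of GFP control replicate 2 thus lay within the TFEB range, while T and NK cell markers were highest in GFP control replicate 2, as Cxcl9, Cxcl10 and Ccl5 were. Only 1 of the 7 NK cell markers was bright, and 0 were called with all arrays. Without GFP control replicate 2, Klrd1 (2.13), Nkg7 (1.01) and Gzma (0.93) were higher. Gzmb (0.49), Prf1 (0.29), Eomes (0.24) and Ncr1 (0.22) were not called. Of the 12 T cell markers, Cd3g (0.86) and Cd3d (0.81) were then higher and Cd28 (-0.67) lower, which the sum does not show. The 4 dendritic cell markers, 2 of them bright, summed to 167 to 200, 334 and 293 to 419. With all arrays Zbtb46 was higher (log2 1.07), while Itgax (1.10), Flt3 (0.13) and Cd209a (-0.14) were not called. The 8 neutrophil markers summed to 226 to 242, 220 and 358 to 506, a rise carried mostly by S100a8, which was higher 9.51-fold. S100a9 was higher as well (log2 0.60), the other 6 were not called and lay between -0.37 (Camp) and 0.02 (Ltf), and the list median was -0.08. In whole muscle, a change in the number of cells of a type and a change in RNA per cell cannot be told apart, and the part of these cells in the members' values was not tested.

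Endothelial and fibroblast markers differed by group and not by that array. Of 9 endothelial markers 6 were higher, with sums of 1617 to 1626 in GFP control replicates 1 and 3, 1360 in replicate 2 and 2845 to 3163 in the TFEB arrays. Of 9 fibroblast and fibro-adipogenic progenitor markers 6 were higher, with sums of 12307 to 12613, 11331 and 19317 to 24849. Il33 and the called probe set of Cx3cl1, genes that such cells are known to express, were likewise higher in all TFEB arrays than in all GFP arrays. These 2 were picked, and other members were not called or fell. The other probe sets of Cx3cl1 gave 0.06 and -0.32, Cxcl12 gave 0.38 and 0.24, Cxcl14 gave 0.48 and 0.40, and Ccl11 was lower (-1.31). The 7 mast cell markers, unlike the endothelial and fibroblast ones, summed to 318 to 380, 277 and 217 to 358. The part of these cell types in the members' values was not tested.

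**Figure D4:**
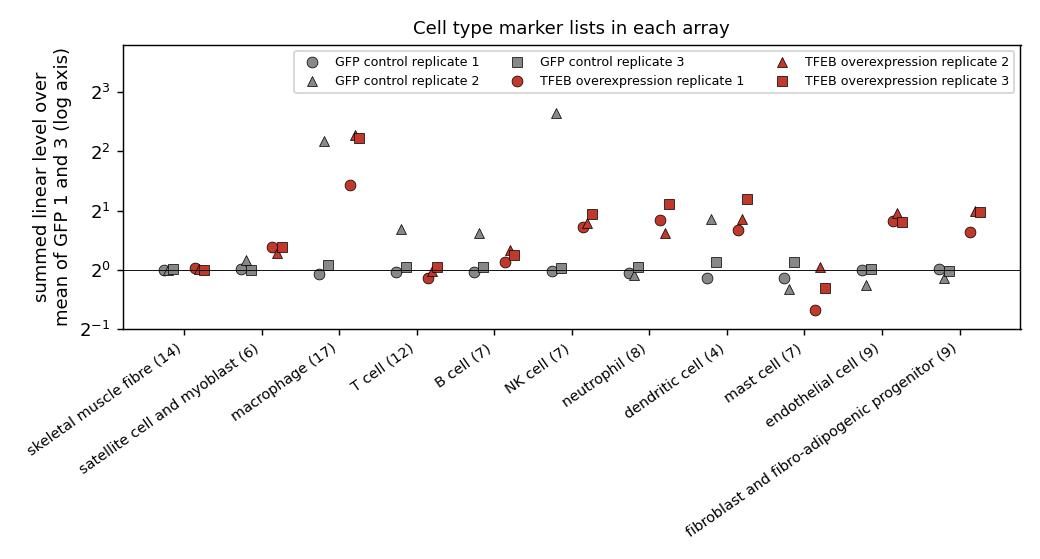
Summed linear level of the markers of each cell type, divided by the mean of GFP control replicates 1 and 3 (log axis, base 2), with the number of markers measured in brackets. Each point is 1 array. Macrophage markers are high in GFP control replicate 2 and in the TFEB arrays, NK and T cell markers are highest in GFP control replicate 2, and endothelial and fibroblast markers are high in the TFEB arrays alone.

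Of 34 ligand and receptor pairs listed from textbook knowledge, 28 had a probe set for both partners and 4 had both partners bright at the probe set of highest mean, namely Ccl2 with Ccr2, Cxcl12 with Cxcr4, Il15 with Il15ra and Il16 with Cd4. At these probe sets both partners were called in 0 pairs with all arrays and in 1, Ccl2 with Ccr2, without GFP control replicate 2. Ccl2, however, was bright only through GFP control replicate 2. With values under the dim limit raised to it, its fold without that array was 1.15, under the fold limit. For Ccl2 with Ccr2 the changes without GFP control replicate 2 were 0.61 and 2.41, and for Cxcl12 with Cxcr4 0.31 and 2.62. In both, the receptor gene changed more than its ligand on the log2 scale. Il15 and the brighter probe set of Il15ra then gave -0.03 and -0.24. Ccl11 fell beside a dim Ccr3, and, without GFP control replicate 2, Cxcl9 and Cxcl10 rose beside a dim Cxcr3 (0.07).

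Genes that carry the signal of these receptors were followed as lists, each gene by its probe set of highest mean. For all genes 8.62% were higher and 4.9% lower with all arrays, and 12.3% and 6.36% without GFP control replicate 2. Of 15 chemokine family members under other names, Cmtm6 was higher (log2 1.00 ± 0.22, adjusted p = 0.015) and the chemokine-like receptor gene Ccrl2 lower (-0.81 ± 0.16, adjusted p = 0.011). Of 24 genes coupling chemokine receptors to the cell interior, 5 were higher and 0 lower (1 lower at an unadjusted p under 0.05, and 0 called lower by the methods' two-tailed test). They were the G protein subunit genes Gnb1 (0.73 ± 0.084) and Gnai2 (0.88 ± 0.17), the receptor kinase gene Grk5 (0.88 ± 0.15), the arrestin gene Arrb1 (0.63 ± 0.11) and Rgs2, a brake on G protein signals (1.26 ± 0.22). Without GFP control replicate 2, 12 of the 24 were higher, among them the leukocyte genes Rac2 and Dock2.

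The cytokine genes under other names and their receptors gave 3 higher and 2 lower of 34. Kit, the stem cell factor receptor (1.51 ± 0.11, adjusted p = 0.00059), Tnfrsf12a, the TWEAK receptor of regenerating muscle (1.19 ± 0.14, adjusted p = 0.0019), and Osmr, the oncostatin M receptor that pairs with gp130 (0.73 ± 0.19, adjusted p = 0.025), were higher. Lifr, the LIF receptor that also pairs with gp130 (-0.67 ± 0.079, adjusted p = 0.0020), and the growth hormone receptor gene Ghr (-0.65 ± 0.098, adjusted p = 0.0043) were lower. In GFP control replicate 2 all 5 stayed within 0.5 log2 units of replicates 1 and 3. Without GFP control replicate 2, 12 of the 34 were higher and 2 lower.

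In the JAK, STAT and SOCS list 1 of 25 genes was higher and 4 lower. Tyk2, the kinase used by Il10rb, was higher (0.77 ± 0.16, adjusted p = 0.011). Jak2, kinase of the growth hormone receptor, read 9.22, 9.25 and 9.17 in the GFP arrays and 7.84, 7.82 and 7.77 in the TFEB arrays. It was lower 2.64-fold (-1.40 ± 0.066, adjusted p = 0.00026). Stat5b (-1.02 ± 0.096, adjusted p = 0.0011), Socs2 (-0.84 ± 0.24, adjusted p = 0.039) and Pias2 (-0.67 ± 0.090, adjusted p = 0.0029) fell as well. Of 28 genes of NF-kB and interleukin-1 receptor signalling, 5 were higher and 1 lower. Higher were Tnip1 (0.64 ± 0.088), Nfkb2 (0.85 ± 0.17), Ikbkb (0.62 ± 0.14), Relb (0.84 ± 0.21) and the inhibitor gene Nfkbia (0.65 ± 0.20), and Tab2 was lower (-0.61 ± 0.066). Without GFP control replicate 2 the counts were 6 higher and 5 lower for the JAK, STAT and SOCS list and 11 higher and 1 lower for the NF-kB list.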

How the data were processed

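Muscle RNA of 6 mice was hybridised to Affymetrix arrays. The authors deposited log2 values per probe set, and the submitters' notes name affy and RMA (versions not given in the sources used here). Of 22690 probe sets 64 controls were left out. GEO's platform annotation gave 1 symbol to 20380, several to 691 and none to 1555. All 157 member identifiers were found in RefSeq (GRCm38.p6), with 0 symbols changed. TFEB overexpression was compared with GFP control using limma 3.58.1 in R 4.3.3 (2-group lmFit and eBayes, two-sided), with Benjamini-Hochberg adjustment over 22626 probe sets, which was tested on simulated data. Precision is limited by the number of arrays, which have no depth. The labels call the arrays biological replicates. Figures were drawn with matplotlib 3.10.9.

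Named members were those called, both partners of listed ligand and receptor pairs, and the 3 bright members of smallest p that missed the threshold in each role group. Each signalling list gave at most 4 called genes of its main direction and at most 2 of the opposite one. Others (Ccl12, Il2rb, Il3ra, Il18bp, Cxcl14, Rac2, Dock2 and marker genes among them) were chosen after their values were seen. The members and lists were chosen with earlier results of these data known. Alternatives changed the arrays, their scaling and weights, the spread, the dim limit, the fold limit, the test, the probe sets per gene and the pairing.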

Additional observations from a re-analysis of the deposited data

How the results depend on the processing

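With 3 arrays a group, no probe-level background test and 1 GFP array far from the others, the further rises beyond the 4 called with all arrays depend on how that array is treated. Of those 4, all called with and without it, Cxcl13 passed in every left-out-array fit, Cxcr4 in all but that without TFEB overexpression replicate 3, and Il10rb and Il33 were lost without GFP control replicate 1 or 3 or TFEB overexpression replicate 2 or 3. The 4 bright falls (Ccl11, Il12a, and 1 probe set each of Il15ra and Il6st) passed in every such fit. With brightness set by the mean of the 5 arrays other than GFP control replicate 2, an alternative chosen after seeing the data, the counts with all arrays were again 4 higher and 4 lower. Whole-array scaling moved the median of all probe sets by under 0.1. Leaving out 1 array at a time, the count of bright members higher ran from 1 to 20 (20 without GFP control replicate 2), of those lower from 4 to 4, of dim members called from 1 to 11, and the median log2 fold change from 0.09 to 0.51. Over the same fits the counts higher ran from 0 to 6 for CC ligands, 1 to 5 for CXC and CX3C ligands, 0 to 3 for chemokine receptors, 0 to 2 for interleukins and inhibitors, 0 to 4 for interleukin receptors, 0 to 3 (lower 1 to 2) for chemokine family members under other names, 2 to 12 (lower 2 to 3) for cytokines and receptors under other names, 1 to 6 (lower 3 to 5) for JAK, STAT and SOCS, 1 to 11 (lower 0 to 1) for NF-kB signalling and 4 to 12 for receptor coupling. Members whose log2 fold change turned in sign when 1 array was left out were Ccl2 (-0.48 to 0.61), Ccl3 (-1.05 to 0.54), Ccl5 (-0.13 to 2.49), Ccl7 (-0.46 to 0.54), Ccr3 (-0.15 to 0.01), Ccr7 (-0.11 to 0.65), Ccr9 (-0.13 to 0.02), Cxcl9 (-0.77 to 2.43), Cxcl10 (-0.19 to 2.54), Cxcr3 (-0.80 to 0.07), Cxcr6 (-0.56 to 0.55), Il10 (-0.08 to 0.27), Il18r1 (-0.55 to 0.33), Il1rn (-0.23 to 0.13) and Il2 (-0.06 to 0.03).

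With array weights (GFP control replicate 2 weighted 0.414), 12 bright members were higher (CC ligands 4, CXC and CX3C ligands 2, chemokine receptors 2, interleukin receptors 3), 6 dim members were called, and the lists gave 3 higher under other names of the chemokine family, 9 for cytokines, 4 for JAK, STAT and SOCS, 10 for NF-kB signalling and 10 for receptor coupling. The sign then turned for Ccl2 (0.35), Ccl3 (0.16), Ccl7 (0.31), Cxcr6 (0.29), Il18r1 (0.12) and Il1rn (0.05). With the methods' two-tailed test after adjustment, 0 bright members were higher (4 at an unadjusted p under 0.05), hence 0 in each role group, 1 dim member was called, and the chemokine family under other names gave 0 higher and 0 lower, JAK, STAT and SOCS 0 higher and NF-kB signalling 1 higher. With equal medians the counts higher were 0 for interleukins and inhibitors, 2 for the chemokine family under other names, 5 for cytokines and 2 for NF-kB signalling, and Il10 turned to -0.03. Fast fibre scaling gave 2 and 5 higher, and an intensity trend 2 and 5, for the chemokine family under other names and for cytokines, and the fit over bright probe sets only 2 for the former. With quantile normalization once more, 0 interleukins were higher, and Ccr3 (0.02), Ccr9 (0.02), Il1a (0.01) and Il2 (0.05) turned in sign.

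With the mean of a gene's probe sets, 2 bright members were lower, 0 interleukins and inhibitors higher, 0 interleukin receptors lower, 1 dim member called, 1 cytokine gene lower, and NF-kB signalling 2 higher and 0 lower. The called probe sets of Il15ra (-0.53), Il6st (-0.29) and Cx3cl1 (0.25) fell under the fold limit there. With a dim limit of 5.0, 2 CC ligands were lower, 2 CXC and CX3C ligands higher and 0 dim members called. At 6.5, 2 bright members were higher, 0 CXC and CX3C ligands, 0 chemokine receptors, 0 interleukins lower, and 5 dim members were called. With no fold limit, 7 bright members were lower, 2 CXC and CX3C ligands higher and 1 lower, 4 interleukin receptors lower, 7 dim members called, 3 chemokine family genes under other names lower, JAK, STAT and SOCS 5 higher and 8 lower, and receptor coupling 8 higher and 1 lower.

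The labels only number the mice within a group, so whether replicate numbers pair the samples is not known. With 3 arrays a group and 1 GFP array far from the others, the correlations that follow cannot settle it. Deviations from the group means correlated at 0.422, 0.166 and -0.233 over all probe sets for numbers 1, 2 and 3, and GFP control replicate 2 correlated most with TFEB overexpression replicate 3 (0.327). With the number as a replicate block, the counts higher were 2 for interleukin receptors, 2 for the chemokine family under other names, 5 for cytokines and 3 for NF-kB signalling, and Il13ra1 was called (0.74). Where a value changed, the cause was not tested unless the setting itself removed arrays, probe sets or the fold limit.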
